A study of Mus musculus with 12 samples.

Results

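RNA-seq libraries of long-term haematopoietic stem cells (LT-HSCs) whose names carry the letters ZL were compared by Jak1 genotype: 3 from cre-negative mice, written wt 4, wt 5 and wt 6, and 3 from cre-positive mice labelled Jak1 KO, written KO 4, KO 5 and KO 6. They are 6 of the 12 libraries in the series, chosen by name, and the other 6 carry the letters VD (replicates 1 to 3 of each genotype). What the letters stand for is not given in the labels. All mice were of the C57BL/6 strain, the tissue was bone marrow, and the libraries were made from total RNA with a poly-A protocol. Both genotypes had received 4 doses of poly(I:C), a synthetic double-stranded RNA, between 4 and 6 weeks before harvest, to induce the deletion. Since poly(I:C) is itself an inducer of interferon, every library, wt included, comes from a mouse that had been exposed to it. The cre and the loss of Jak1 were present in the same libraries and cannot be told apart, and the labels used here name neither the cre driver nor the deleted exons. Nothing in the labels says whether a library held cells of 1 mouse or of a pool, so p-values measure the spread between these libraries.

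JAK1 is a tyrosine kinase bound to the receptors of type I and type II interferon and of several interleukins. After a cytokine binds, it phosphorylates STAT proteins. Some of these join IRF9 to form the factor ISGF3, which binds the interferon-stimulated response element (ISRE). The genes they switch on include antiviral enzymes, interferon-inducible GTPases that act on vacuoles holding pathogens, and the proteins that load and present peptides on MHC molecules. LT-HSCs sit at the top of blood formation, and interferon is known to act on them.

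The promoters of 4 genes that lay below every wt library in all 3 KO libraries are shown to let the ISRE be seen in its setting, and they were picked because they hold a match. Each is the 120 bases before a RefSeq start site (build GRCm38.p6), written 5′ to 3′ on the gene's strand, with matches to the ISRE core GAAANNGAAA, searched on both strands, in capitals. Ifit1 encodes an antiviral protein that binds foreign RNA, and Gm12250 (Irgb10), Igtp and Tgtp2 encode interferon-inducible GTPases.
Ifit1, chr19:34640769-34640888, plus strand: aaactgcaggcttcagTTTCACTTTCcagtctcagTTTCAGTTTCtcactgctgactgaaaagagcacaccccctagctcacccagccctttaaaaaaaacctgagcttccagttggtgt
Gm12250, chr11:58183723-58183842, plus strand: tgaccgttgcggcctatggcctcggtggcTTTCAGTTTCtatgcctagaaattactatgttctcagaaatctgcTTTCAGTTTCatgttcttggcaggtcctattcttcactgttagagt
Igtp, chr11:58199436-58199555, plus strand: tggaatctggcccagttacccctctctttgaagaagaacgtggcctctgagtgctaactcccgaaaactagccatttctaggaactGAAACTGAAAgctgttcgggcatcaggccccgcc
Tgtp2, chr11:49064213-49064332, minus strand: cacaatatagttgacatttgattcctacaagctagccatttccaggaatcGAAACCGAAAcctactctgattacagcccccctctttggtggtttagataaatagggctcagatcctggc
Ifit1 and Gm12250 held 2 matches each. Those of Ifit1 began 104 and 85 bases before the start site and those of Gm12250 91 and 46 bases before it. Igtp and Tgtp2 held 1 match each, beginning 34 and 70 bases before the start. Of all 32851 promoter windows in the RefSeq table, each 300 bases long, 3.44% held this core. A match describes the letters only. The table held a window for 16 of the 26 genes with the widest separation described below, under the 80% needed, so a comparison of shares between gene sets is void and none is given. Of those 16 genes, 9 held no match in their windows, among them Irf9, Irf7, Ifi44, Oasl1 and Phf11d.

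The ZL libraries varied strongly. Totals of reads counted in genes ranged from 13804931 (KO 4) to 28701855, and Spearman correlations between libraries across genes ranged from 0.858 to 0.989. The first principal component held 52.2% of the variance and set KO 4, at -88.8, apart from wt 6 and KO 6, at 68.6 and 49.7, which does not follow the genotype. In the same 3 libraries, expression moved with exon length: the rank correlation across genes between the deviation from the mean level and exon length was -0.49 in KO 4, 0.441 in KO 6 and 0.363 in wt 6. By Xist and Y-linked genes, replicate 4 was male and replicates 5 and 6 were female in both genotypes. Markers of LT-HSCs were present in all libraries, with Procr between 113 and 289 CPM (counts scaled to a common library size), Hlf between 192 and 373 CPM and Mecom between 61.9 and 327 CPM. Summed levels of the monocyte and macrophage, erythroid, neutrophil, dendritic, B-cell, T-cell and natural killer (NK) lists were each highest in KO 4. The neutrophil list (9 of 21 genes tested) summed to 349 CPM in KO 4, against 225 to 270 CPM in wt. The NK list (3 of 11 tested) summed to 208 CPM in KO 4, of which Nkg7 made 198 CPM, against 78.6 to 101 CPM in wt. Cd160 was lowest in KO 4, at 0.0803 CPM, and Klrb1c was within the wt range there, at 8.19 CPM. In the monocyte and macrophage list and the erythroid list, most of the sum came from 1 gene as well. The monocyte and macrophage list (12 of 18 genes tested) summed to 1083 CPM in KO 4, of which Lyz2 made 1012 CPM, against 411 to 593 CPM in wt. The erythroid list (20 of 27 tested) summed to 6329 CPM, of which Car2 made 5918 CPM, against 2908 to 3623 CPM in wt. By gene, KO 4 was the highest of the 6 libraries for 6 and the lowest for 6 of the 12 monocyte and macrophage genes, and the highest for 3 and the lowest for 7 of the 20 erythroid genes. The myeloid genes Csf1r and Mpo stayed between 0.964 and 3.99 CPM and the B-cell gene Cd79a between 0.0767 and 0.918 CPM in all 6 libraries. Another B-cell gene, Cd79b, had 150 CPM in KO 4 against 43.3 to 70.8 CPM in wt. Of the 7 B-cell genes tested, KO 4 was the highest library for 3 and the lowest for 0. These markers therefore do not show that other cells were absent. Because of this spread, values are given per library below, always in the order wt 4, wt 5, wt 6 and then KO 4, KO 5, KO 6, in CPM after TMM scaling. CPM depends on transcript length, so levels are compared between libraries and not between genes.

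Across 13859 genes tested, edgeR's quasi-likelihood test called 0 genes lower and 0 higher in the KO at an adjusted p (Benjamini-Hochberg) of 0.05, which is 0.00% in each direction. At an unadjusted p under 0.05 there were 226 genes (1.63%), of which 146 were lower and 80 higher, and the smallest adjusted p was 0.0834. DESeq2 called 45 genes lower and 0 higher, and limma-voom with a quality weight for each library called 47 lower and 0 higher. Both of these tools called 38 genes, of which 23 belonged to the lists of interferon and MHC genes. The limma-voom weights were 1.12, 1.33 and 0.654 for wt 4, wt 5 and wt 6, and 0.321, 5.93 and 0.539 for KO 4, KO 5 and KO 6. The KO side of the limma-voom fit therefore leaned mostly on KO 5. In the text below "lay below" and "lay above" describe genes whose 3 KO libraries are all outside the range of the 3 wt libraries. This held for 378 genes below (2.73% of those tested) and 305 genes above (2.20%). Of the 20 relabelings of 3 against 3 libraries, 1 puts all KO below and 1 all KO above. Genes without a genotype effect can therefore meet this rule too, and neither share was above 1 in 20. The median gap was 0.157 log2 units for genes below and 0.142 for genes above, and the directions differed at the wide end. Among genes with a mean of at least 5 CPM, 26 had a gap of at least 1 log2 unit between the lowest wt and the highest KO library, and 0 had such a gap in the other direction. The widest gap among these was 3.29 log2 units for genes below and 0.71 for genes above. Without the limit on the mean, 42 genes below and 3 above had a gap of at least 1 log2 unit.

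Of the 133 tested genes in the interferon and MHC lists, 63 lay below the wt range and 0 above it, and 15 of the 26 genes with a gap of at least 1 log2 unit were among them. These lists were drawn up with earlier results of these data known. Without KO 4, the other 2 KO libraries lay below all wt libraries for 85 of the 133 genes (63.9%), against 5.17% of all genes tested. Without KO 5 this held for 64 genes (48.1%, against 4.57%) and without KO 6 for 89 genes (66.9%, against 15.8%).

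**Figure D1:**
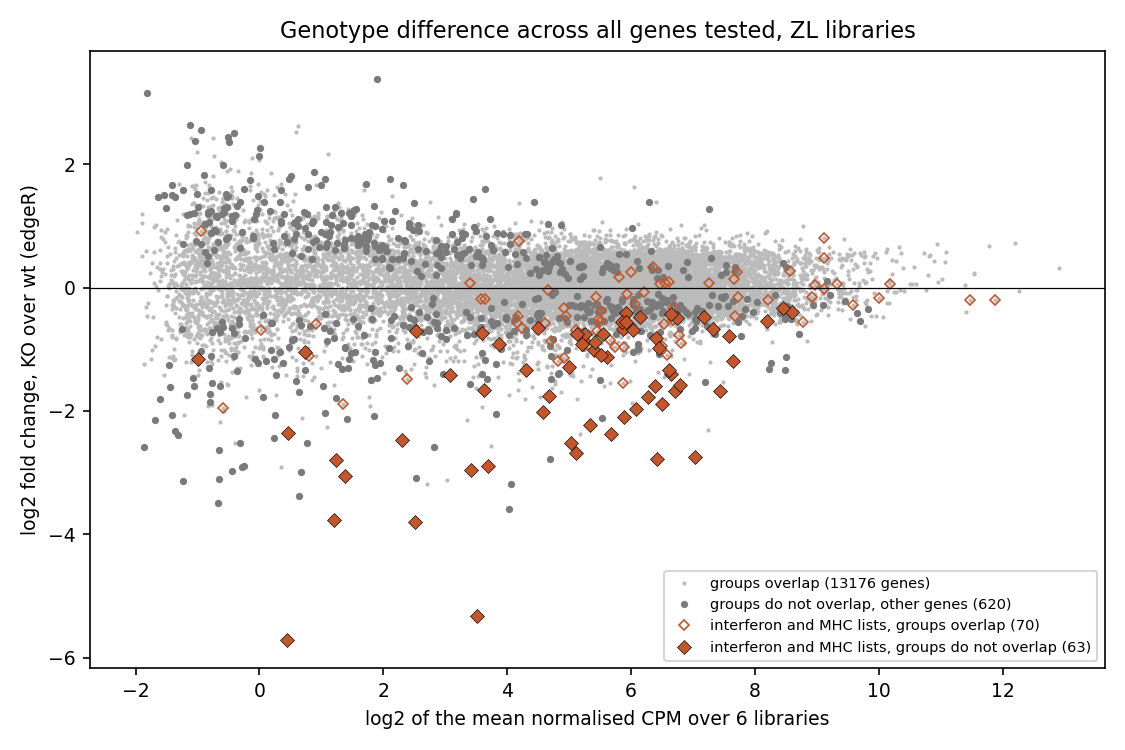
Log2 fold change of KO over wt (vertical axis, edgeR fit of the 6 ZL libraries) against the log2 mean CPM (horizontal axis), 1 point for each of the 13859 genes tested. Filled diamonds are the 63 interferon and MHC list genes whose KO libraries all lay below the wt libraries, and all of them are under 0. Open diamonds are the 70 list genes whose groups overlap, dark dots the 620 other genes without overlap and pale dots the 13176 genes with overlap.

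Jak1 itself did not separate the groups. Its level was 487, 387 and 437 CPM in wt and 262, 419 and 766 CPM in KO. KO 4 was under the wt range, KO 5 within it and KO 6 above it. The log2 fold change was 0.14 (SE 0.38, n = 3 per group, edgeR adjusted p = 0.958), and an exact two-sided permutation test over the 20 relabelings gave p = 1, where 0.1 is the smallest p that 3 against 3 allows. The table counts the gene as a whole, also any exons still transcribed after recombination, so this level is no check of the labels.

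Among the genes next to JAK1 in the pathway, Irf9 lay below the wt range. Irf9, the DNA-binding subunit of the factor ISGF3, had 153, 173 and 173 CPM in wt and 49.0, 60.2 and 57.5 CPM in KO. Its groups were 1.35 log2 units apart at their nearest libraries, and its log2 fold change was -1.58 (SE 0.25, adjusted p = 0.262 by edgeR, 3.34e-05 by DESeq2 and 0.00793 by limma-voom).

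Several kinases and STAT genes overlapped between genotypes. Stat2, a subunit of ISGF3, had 61.8, 51.4 and 121 CPM in wt and 15.3, 30.4 and 74.6 CPM in KO. Jak2, which signals for the receptors of thrombopoietin and erythropoietin, had 173, 48.7 and 46.6 CPM in wt and 26.8, 64.0 and 47.0 CPM in KO, so the wt mean rested on wt 4. Tyk2, the kinase that pairs with JAK1 on the type I interferon receptor, had 65.7, 49.7 and 132 CPM in wt and 25.9, 40.2 and 99.1 CPM in KO. In Stat2 and Tyk2, replicate 6 was the highest library of each genotype and KO 4 the lowest of all 6. Stat3, Stat5a and Stat5b, which carry signals of interleukin 6, thrombopoietin and related cytokines, had log2 fold changes of -0.57 (SE 0.39), -0.41 (SE 0.38) and -0.34 (SE 0.32), and their groups overlapped.

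Of 11 tested genes of the interferon regulatory factor (IRF) family, 4 lay below the wt range (36.4%): Irf9, Irf7, Irf1 and Irf8. Irf7, the factor that amplifies type I interferon production, had 26.6, 41.6 and 47.2 CPM in wt and 12.1, 10.4 and 5.96 CPM in KO. The highest KO library was 1.13 log2 units under the lowest wt library, and the log2 fold change was -2.02 (SE 0.39, adjusted p = 0.491 by edgeR and 0.000881 by DESeq2). Irf1, an early target of interferon, had 231, 210 and 173 CPM in wt and 135, 118 and 113 CPM in KO, with a log2 fold change of -0.75 (SE 0.25, edgeR adjusted p = 0.946). The Irf8 groups were apart by only 0.03 log2 units.

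The antiviral genes induced by type I interferon formed the longest list. Of 78 tested members, 38 lay below the wt range (48.7%) and 0 above it, and 70 had a log2 fold change below 0. The median log2 fold change was -0.74, against -0.0028 over all genes tested. DESeq2 called 17 of them and limma-voom 14, all lower, while edgeR called 0.

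Oas2, an enzyme that makes the 2′-5′ oligoadenylates that activate RNase L, had the widest gap of any gene with a mean of at least 5 CPM. It had 9.16, 10.4 and 47.0 CPM in wt and 0.0803, 0.861 and 0.587 CPM in KO. The KO values rest on 1, 25 and 14 reads, and wt 6 was far above the other wt libraries. Oasl1, a relative that restrains Irf7 translation, had 10.03, 8.72 and 13.3 CPM in wt and 0.161, 1.62 and 0.378 CPM in KO. The Oas2 and Oasl1 log2 fold changes were -5.33 (SE 0.94, edgeR adjusted p = 0.385) and -3.80 (SE 0.73, edgeR adjusted p = 0.491). Oasl2 stood at 121, 139 and 176 CPM in wt and at 52.3, 48.7 and 63.4 CPM in KO. All 3 were below the wt range in every KO library, but members of the Oas family resemble each other, and reads may be split among them.

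Phf11d and Ifi44 also lay below, and Phf11d was tighter within each genotype, relative to its mean, than Oas2 and Oasl1. Phf11d, a PHD-finger gene of the interferon response, had 21.5, 25.5 and 21.4 CPM in wt and 3.69, 2.48 and 3.06 CPM in KO. The log2 fold change of Phf11d was -2.89 (SE 0.33, adjusted p = 0.103 by edgeR, 9.44e-13 by DESeq2 and 0.00164 by limma-voom). Ifi44 had 74.9, 93.9 and 119 CPM in wt and 17.8, 20.9 and 28.7 CPM in KO. The lowest wt library of each gene was above the highest KO library by 2.5 and 1.38 log2 units.

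The GTPase Mx2 had 5.91, 8.26 and 11.01 CPM in wt and 1.28, 1.34 and 1.89 CPM in KO. Ifit1, whose promoter is printed above, had 26.6, 44.2 and 47.1 CPM in wt and 10.2, 12.2 and 12.4 CPM in KO, a log2 fold change of -1.76 (SE 0.33, edgeR adjusted p = 0.478). Rtp4, a chaperone of membrane receptors, had 70.1, 98.0 and 88.0 CPM in wt and 30.4, 10.8 and 8.56 CPM in KO. In Rtp4 the groups stayed apart, although KO 4 was well above the other KO libraries. The ubiquitin-like modifier Isg15 and its protease Usp18 also lay below. Isg15 had 8.43, 13.4 and 14.8 CPM in wt and 7.95, 3.65 and 2.31 CPM in KO, so that KO 4 was only just under wt 4. Usp18 had 34.2, 47.3 and 54.2 CPM in wt and 21.3, 17.5 and 16.99 CPM in KO.

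**Figure D2:**
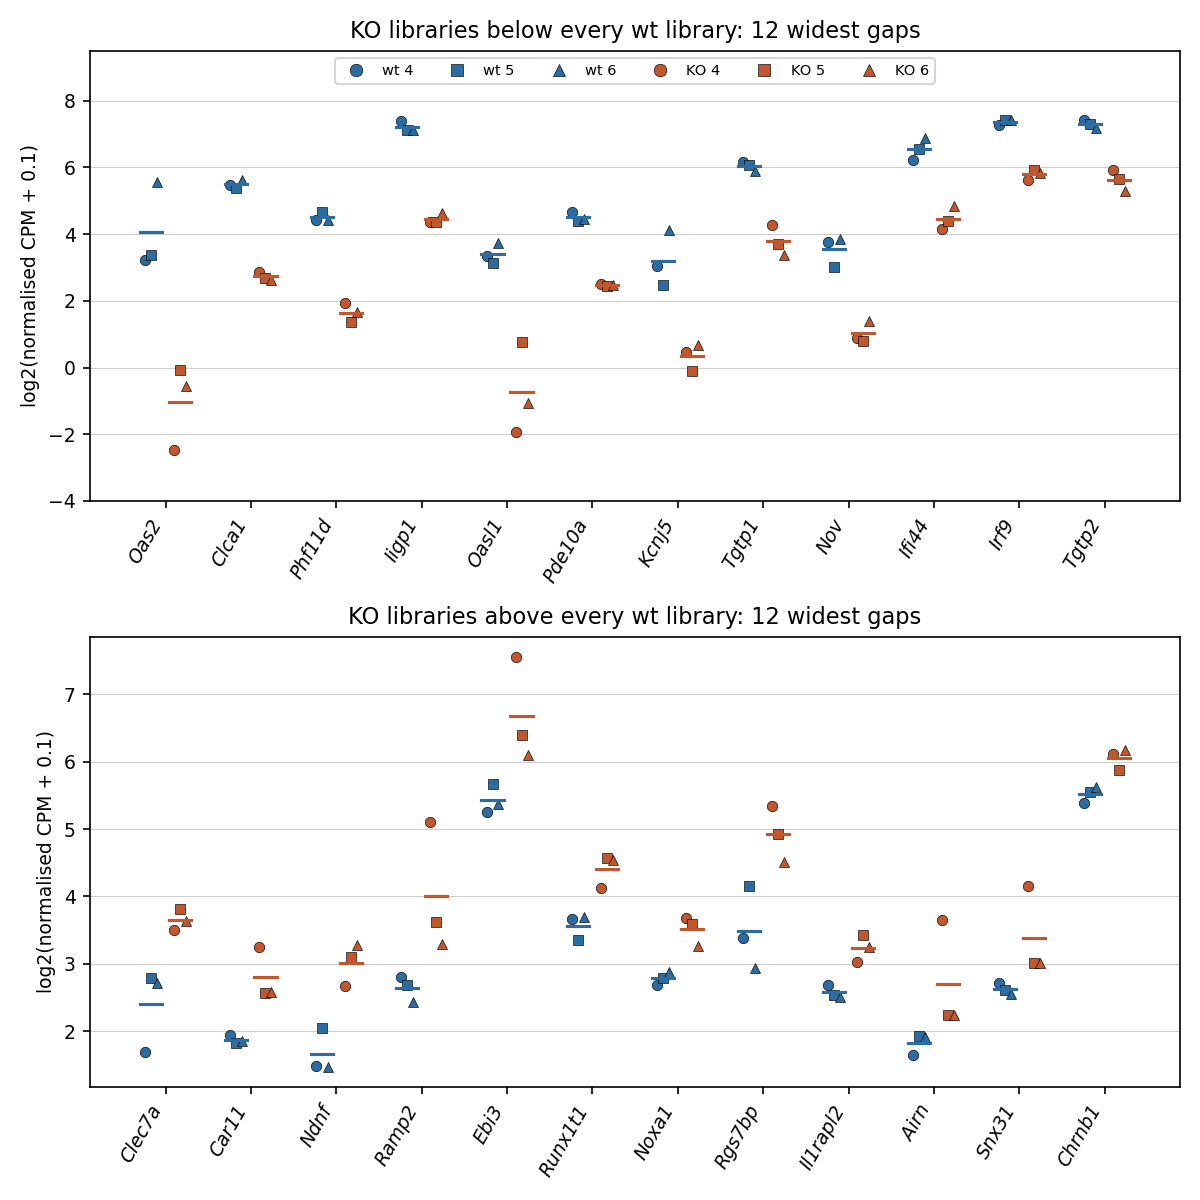
Normalised CPM on a log2 scale (vertical axis, after adding 0.1) in each of the 6 ZL libraries for the 12 genes with the widest gap below wt (upper panel) and above wt (lower panel), among genes with a mean of at least 5 CPM. Symbols are libraries and bars the mean of the log2 values of 3 libraries. In the upper panel the gap reaches 3.29 log2 units (Oas2), in the lower panel 0.71 (Clec7a).

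Interferon-inducible GTPases were the list with the largest share of separated members. Of 18 tested, 13 lay below the wt range (72.2%) and 0 above it, with a median log2 fold change of -0.997. In Iigp1, which attacks the vacuole of intracellular parasites, the level was 169, 140 and 140 CPM in wt and 20.6, 20.4 and 24.6 CPM in KO. The 3 KO libraries agree closely here, KO 4 included, and the fold difference was 6.84. The log2 fold change was -2.77 (SE 0.27) and the adjusted p 0.0834 by edgeR, 9.03e-16 by DESeq2 and 0.00146 by limma-voom.

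Tgtp1 had 72.3, 67.1 and 59.9 CPM in wt and 19.1, 13.05 and 10.2 CPM in KO, and its near copy Tgtp2 had 173, 159 and 146 CPM in wt and 61.0, 49.98 and 39.3 CPM in KO. The copies share sequence, so the split of reads between Tgtp1 and Tgtp2 is uncertain, but both lay below. Igtp had 144, 142 and 133 CPM in wt and 64.4, 51.4 and 50.2 CPM in KO, a log2 fold change of -1.34 (SE 0.25, edgeR adjusted p = 0.478). Gm12250, which is in none of the lists, had 77.4, 75.8 and 71.9 CPM in wt and 17.4, 17.6 and 16.99 CPM in KO. Its libraries were close to each other within each genotype, and its log2 fold change was -2.11 (SE 0.26, adjusted p = 0.132 by edgeR and 2.90e-10 by DESeq2). The regulatory members Irgm1 and Irgm2, which guard the cell's own membranes, differed in size: Irgm2 had a log2 fold change of -1.78 (SE 0.39) and Irgm1 of -0.67 (SE 0.23). The guanylate-binding proteins Gbp2 and Gbp3 lay below with log2 fold changes of -0.81 (SE 0.24) and -1.13 (SE 0.29).

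Genes of MHC class I were split by library KO 4. Of 27 tested, 7 lay below the wt range (25.9%) and 0 above it, and the median log2 fold change was -0.29. Tap1, the peptide transporter that supplies class I molecules, had 273, 277 and 287 CPM in wt and 97.8, 125 and 145 CPM in KO. Its wt libraries were nearly equal, all 3 KO libraries were lower, and the log2 fold change was -1.19 (SE 0.25, adjusted p = 0.68 by edgeR, 0.0370 by DESeq2 and 0.0178 by limma-voom). H2-Q5 and H2-T10, non-classical class I genes with close relatives that may share their reads, had log2 fold changes of -1.09 (SE 0.26) and -0.92 (SE 0.28) and lay below as well.

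The abundant class I genes behaved otherwise. B2m, the light chain of all class I molecules, had 3846, 4918 and 3336 CPM in wt and 5547, 2969 and 2002 CPM in KO. H2-K1, a classical heavy chain, had 2907, 3374 and 2771 CPM in wt and 4167, 2022 and 1717 CPM in KO. In both genes KO 5 and KO 6 were under every wt library and KO 4 was above every wt library. The log2 fold change was -0.20 (SE 0.37) for B2m and -0.20 (SE 0.34) for H2-K1 with all libraries, -0.69 and -0.68 without KO 4, and 0.08 and 0.03 without KO 6. Nlrc5, the transactivator of class I genes, had 68.0, 42.7 and 151 CPM in wt and 15.7, 24.3 and 49.7 CPM in KO, and only KO 6 overlapped the wt range.

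This pattern of KO 4 alone was counted over the interferon and MHC lists. In 13 of the 85 genes in which KO 5 and KO 6 lay below all wt libraries, KO 4 was above all wt libraries, and in 9 it was within the wt range. The 13 were B2m, H2-K1, H2-D1, H2-T23, H2-M3, H2-DMa, Psmb8, Psmb9, Isg20, Ifitm3, Xaf1, Lgals9 and Phf11b, named after their values were seen. Over all genes tested, KO 4 was above all wt libraries in 215 of the 716 genes in which KO 5 and KO 6 were below. The same count for KO 5, set against KO 4 and KO 6, was 0 of 64 list genes and 45 of 634 genes tested. For KO 6, set against KO 4 and KO 5, it was 1 of 89 list genes (Gbp9, named after its values were seen) and 514 of 2189 genes tested. KO 4 was the library with the lowest total, the lowest quality weight (0.321) and the strongest trend of expression with exon length. With an offset for the trend on exon length, added after the data were seen, the log2 fold change was -0.62 for B2m and -0.34 for H2-K1. With quality weights in limma-voom it was -0.49 and -0.58. Neither gene was called under these settings. Whether these traits of KO 4 bear on its values was not tested.

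**Figure D3:**
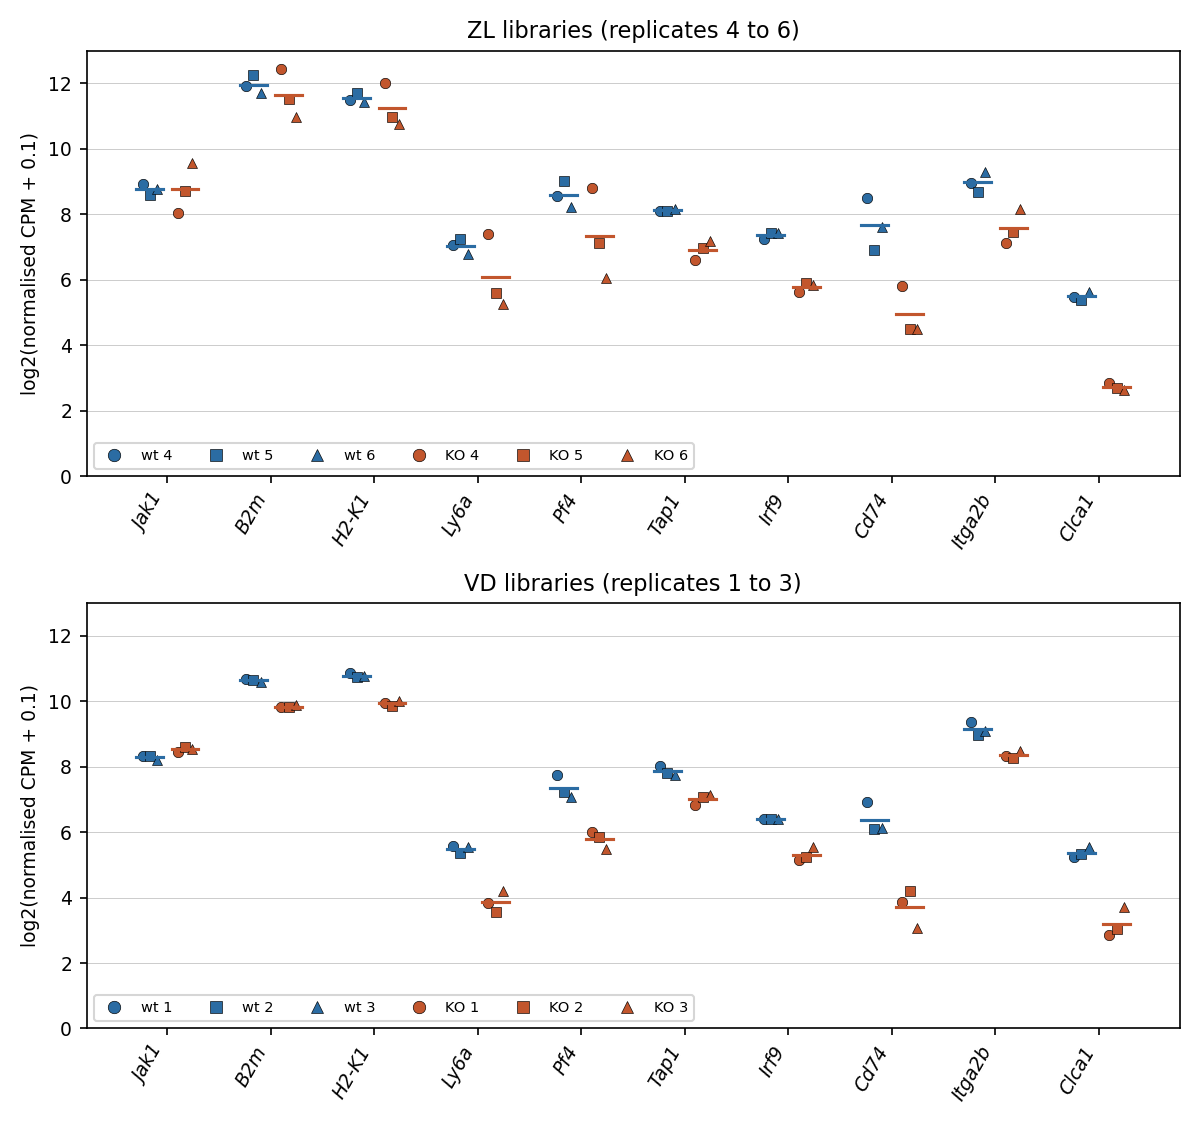
Normalised CPM on a log2 scale (vertical axis, after adding 0.1) of 10 genes in each library, with the 6 ZL libraries in the upper panel and the 6 VD libraries in the lower panel. Symbols are libraries and bars the mean of the log2 values. KO 4 (circle, upper panel) is above all wt libraries for B2m, H2-K1 and Ly6a, and within the wt range for Pf4.

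MHC class II genes lay below in 5 of 10 tested members (50%), with 0 above and a median log2 fold change of -0.65. Cd74, the invariant chain that fills the class II groove until peptide is loaded, had 363, 121 and 194 CPM in wt and 56.4, 22.5 and 22.7 CPM in KO. The wt libraries spread widely and KO 4 was the highest KO library, yet the groups did not overlap. The log2 fold change was -2.74 (SE 0.54, adjusted p = 0.526 by edgeR, 0.000283 by DESeq2 and 0.0178 by limma-voom). H2-Aa, the alpha chain, had 154, 89.6 and 77.2 CPM in wt and 46.4, 21.2 and 14.6 CPM in KO. The beta chain H2-Eb1 had 92.0, 50.3 and 36.4 CPM in wt and 19.4, 5.82 and 2.94 CPM in KO. H2-Ab1 had 171, 109 and 95.9 CPM in wt and 80.1, 24.2 and 19.9 CPM in KO. In all 4 genes wt 4 and KO 4 were the highest libraries of their genotype. Ciita, the transactivator of class II genes, had 8.08, 6.07 and 7.32 CPM in wt and 5.38, 4.17 and 3.61 CPM in KO.

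Class II genes are also markers of B cells, dendritic cells and macrophages. Of the B-cell list 7 of 13 genes were tested, with 0 below and 0 above the wt range, and the summed level was 55.5 to 82.3 CPM in wt and 60.1 to 167 CPM in KO, of which Cd79b made 150.1 CPM in KO 4. Of the dendritic list 9 of 14 were tested, with 0 below and 2 above, and the sum was 292 to 326 CPM in wt and 265 to 370 CPM in KO, with Klrd1 at 0 in all 6 libraries. Fewer cells of a type and less RNA per cell cannot be told apart in such bulk libraries. The part of other cells in the class II values was not tested.

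Receptors that use JAK1 and the feedback genes of the pathway were mostly inside the wt range. Of 25 tested receptors and ligands, 2 lay below (8%): Lifr and Osmr, which bind leukaemia inhibitory factor and oncostatin M, at 1.56 CPM and 2.08 CPM or less in every library. Of 27 feedback genes, 1 lay below (3.7%, near the 2.73% of all genes). That gene was Pim2, a survival kinase induced by STAT5, with 78.8, 93.4 and 98.8 CPM in wt and 48.4, 51.4 and 44.0 CPM in KO. This was a log2 fold change of -0.91 (SE 0.25), with an adjusted p of 0.946 by edgeR. Pim1, a kinase of the same family, had 21.7, 28.2 and 11.96 CPM in wt and 30.6, 159 and 21.4 CPM in KO, so its mean rested on KO 5. Socs3, which blocks JAK1, had a log2 fold change of -1.09 (SE 0.48), with overlapping groups.

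Megakaryocyte and platelet genes lay below in 9 of 29 tested members (31%), with 0 above and a median log2 fold change of -0.65. These genes are active in a part of normal LT-HSCs as well as in megakaryocytes. Itga2b, the platelet integrin CD41, had 502, 407 and 624 CPM in wt and 139, 178 and 288 CPM in KO, a log2 fold change of -1.34 (SE 0.34, adjusted p = 0.946 by edgeR, 0.155 by DESeq2 and 0.0386 by limma-voom). The thrombin receptors F2r and F2rl2 followed: F2r had 412, 482 and 594 CPM in wt and 133, 229 and 319 CPM in KO. F2rl2 had 62.1, 74.9 and 63.2 CPM in wt and 34.1, 20.6 and 16.6 CPM in KO. None of the 3 genes overlapped between genotypes.

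Plek, a substrate of protein kinase C in platelets, had 431, 382 and 463 CPM in wt and 107, 169 and 235 CPM in KO. Selp, the adhesion receptor P-selectin, had 83.7, 130 and 143 CPM in wt and 24.2, 74.2 and 70.5 CPM in KO. Gata1, the transcription factor of erythroid and megakaryocytic cells, had 94.5, 108 and 97.7 CPM in wt and 77.6, 51.8 and 46.9 CPM in KO. All 3 lay below, while the chemokine Pf4 did not: it had 378, 523 and 296 CPM in wt and 446, 141 and 66.5 CPM in KO. For Pf4, KO 4 was inside the wt range and the other KO libraries below it. The Pf4 log2 fold change moved from -0.88 (SE 0.63) to -1.94 without KO 4, -0.69 without KO 5 and -0.45 without KO 6. It was -1.48 with the exon length offset and -1.58 with quality weights. Erythroid genes, which share Gata1, lay below in 4 of 20 tested members (20%).

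**Figure D4:**
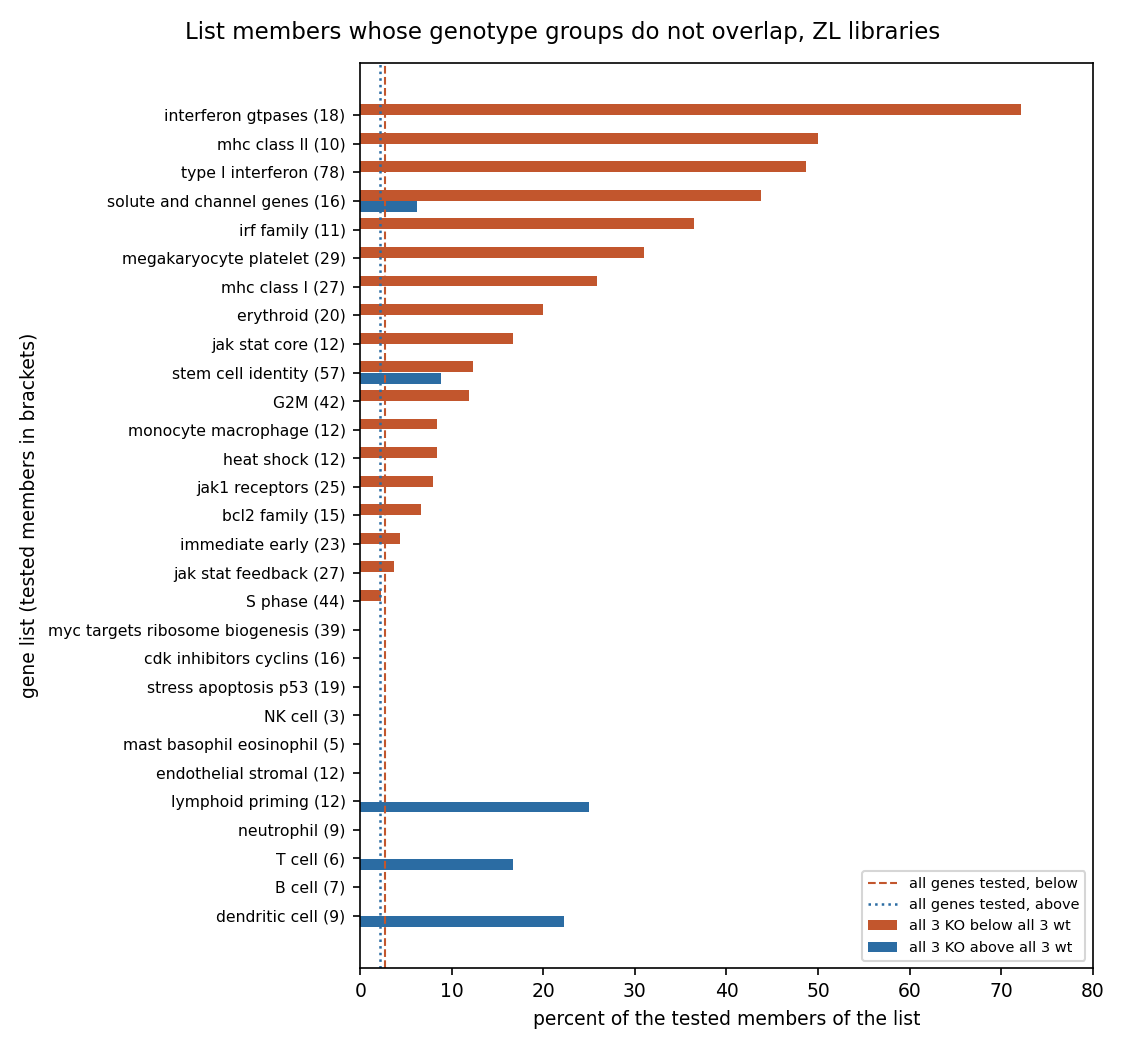
Percent of the tested members of each of 29 gene lists (horizontal axis, number tested in brackets) whose 3 KO libraries all lay below (orange) or above (blue) the 3 wt libraries. The dashed and dotted lines are the shares of all genes tested, 2.73% below and 2.20% above. The interferon-inducible GTPases have the longest bar, at 72.2% below and 0 above.

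Genes of stem-cell identity went both ways: of 57 tested, 7 lay below (12.3%) and 5 above (8.77%), and the median log2 fold change was -0.05. Clca1, listed here as an LT-HSC gene and coding for a protein linked to chloride conductance, had 44.0, 41.8 and 49.2 CPM in wt and 7.15, 6.40 and 6.13 CPM in KO. The 3 KO libraries were close to each other, and the gap to the lowest wt library was 2.53 log2 units. Clca1 had a log2 fold change of -2.78 (SE 0.29, adjusted p = 0.0834 by edgeR, 2.55e-15 by DESeq2 and 0.00146 by limma-voom). The symbol Clca1 matched a current RefSeq symbol, but in this table it may be an older name, of a gene with close relatives nearby. The assignment of its reads is uncertain for that reason. Sdpr, a coat protein of caveolae, had 274, 296 and 263 CPM in wt and 153, 158 and 173 CPM in KO. The organic cation transporter Slc22a3 had 224, 213 and 168 CPM in wt and 103, 128 and 136 CPM in KO. Both lay below, with log2 fold changes of -0.78 (SE 0.22) and -0.73 (SE 0.26).

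Slamf1 (CD150), a surface marker used to sort LT-HSCs, was lower by a small step, with 87.4, 96.0 and 96.9 CPM in wt and 77.0, 73.3 and 76.8 CPM in KO. Ly6a (Sca-1), which is both a sorting marker and an interferon target, showed the KO 4 pattern: 132, 151 and 111 CPM in wt and 170, 48.4 and 38.4 CPM in KO. Its log2 fold change was -0.62 (SE 0.55) with all libraries, -1.59 without KO 4, -0.38 without KO 5 and -0.27 without KO 6. It was -1.18 with the exon length offset and -1.44 with quality weights. Ly6a was called in none of these fits. Above the wt range lay Rgs7bp, which anchors regulators of G-protein signalling, with 10.4, 17.8 and 7.55 CPM in wt and 40.6, 30.4 and 22.7 CPM in KO. The Rgs7bp groups did not overlap, and the log2 fold change of 1.39 (SE 0.41) had an adjusted p of 0.946 by edgeR and 0.35 by DESeq2. Hmga2, a chromatin protein of fetal stem cells, had 12.5, 16.0 and 12.9 CPM in wt and 35.6, 22.3 and 17.2 CPM in KO. Hoxa9, a homeobox factor of stem cell self-renewal, and Cav2, a caveolin, also lay above, with log2 fold changes of 0.42 (SE 0.25) and 0.26 (SE 0.24).

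Several genes with wide gaps belong to no interferon or MHC list: 11 of the 26 with a gap of at least 1 log2 unit. The 11 include gene models that the naming rule passed over, among them Gm12250, the interferon-inducible GTPase described above. Absence from the lists therefore does not mark a gene as unrelated to interferon. Kcnj5, a potassium channel, had 8.08, 5.44 and 17.3 CPM in wt and 1.28, 0.826 and 1.51 CPM in KO. Pde10a, which breaks down cyclic nucleotides, had 25.2, 20.9 and 22.01 CPM in wt and 5.54, 5.37 and 5.45 CPM in KO. Its log2 fold change was -2.06 (SE 0.29, adjusted p = 0.215 by edgeR and 2.60e-07 by DESeq2), and the KO libraries lay almost on 1 value. Mfsd2b, the exporter of sphingosine 1-phosphate in red cells and platelets, had 200.4, 195 and 256 CPM in wt and 78.0, 65.3 and 82.5 CPM in KO. Ache, the esterase that splits acetylcholine, had 45.8, 38.1 and 40.0 CPM in wt and 14.5, 14.2 and 18.8 CPM in KO. Serping1, the inhibitor of complement C1, was too low in abundance to be among the 26 genes. It had 3.69, 2.51 and 2.38 CPM in wt and 0.161, 0.482 and 0.378 CPM in KO. All of these lay below, KO 4 included.

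Among genes with a mean of at least 5 CPM, those above the wt range had gaps of at most 0.71 log2 units, and no gene was called higher by any of the 3 tests. Clec7a, the receptor Dectin-1 for fungal glucan, had 3.13, 6.85 and 6.44 CPM in wt and 11.2, 14.0 and 12.3 CPM in KO. This gave a log2 fold change of 1.19 (SE 0.38) and an adjusted p of 0.946 by edgeR. Ndnf, a secreted factor, had 2.69, 4.03 and 2.68 CPM in wt and 6.26, 8.50 and 9.61 CPM in KO. In several others KO 4 was far above the rest. Ebi3, a subunit shared by several interleukins, had 38.05, 50.5 and 41.4 CPM in wt and 187, 84.2 and 68.6 CPM in KO. Ramp2, a partner of the adrenomedullin receptor, had 6.86, 6.32 and 5.29 CPM in wt and 34.2, 12.2 and 9.69 CPM in KO. Airn, a non-coding RNA antisense to Igf2r, had 3.04, 3.71 and 3.68 CPM in wt and 12.4, 4.61 and 4.62 CPM in KO, and reads of the 2 strands may not be told apart, since the strand setting of the counting is not given in the sources used here. Runx1t1, a transcriptional co-repressor, was above in all 3 without such a peak, with 12.6, 10.1 and 12.8 CPM in wt and 17.3, 23.5 and 23.1 CPM in KO.

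Lymphoid priming genes lay above in 3 of 12 tested members (25%, against 2.20% of all genes tested) and below in 0. Their median log2 fold change was 0.32. Ltb, the membrane anchor of lymphotoxin, had 114, 96.0 and 59.1 CPM in wt and 378, 134 and 141 CPM in KO. Flt3, a receptor of early lymphoid progenitors, had 37.4, 35.5 and 26.1 CPM in wt and 49.1, 38.6 and 38.4 CPM in KO. The third, Ccr9, rested on 3, 18 and 11 reads in wt and 14, 19 and 29 reads in KO. The groups were apart by 0.22 log2 units for Ltb, and by only 0.04 for Flt3 and 0.04 for Ccr9. KO 4 was again the highest library for Ltb and Flt3. The T-cell list had 6 of 14 genes tested, and its sum was 99.2 to 121 CPM in wt and 101.5 to 221 CPM in KO, with KO 4 the highest, where Lat made 186 CPM of the sum.

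Median fold changes of the cell-cycle lists were small. Of 42 genes of the G2 and M phases, 5 lay below (11.9%, against 2.73% of all genes tested) and 0 above. Their median log2 fold change was -0.20, and 29 of the 42 were below 0. Ckap2l, a mitotic spindle protein, had 171, 156 and 151 CPM in wt and 79.97, 110 and 114 CPM in KO. Of 44 S-phase genes 1 lay below (2.27%), with a median of -0.12. The sum of the G2 and M list was 4395 to 4680 CPM in wt and 4085 to 4288 CPM in KO, so these groups do not overlap but differ by little. Of the 23 immediate early genes tested, which mark handling stress among other things, 1 lay below (4.35%) and 0 above. That gene was Btg2, an anti-proliferative gene with a log2 fold change of -1.12 (SE 0.32).

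The VD libraries share no sample with the ZL libraries and give a second set of 3 against 3. They were more alike within genotype: all 3 KO lay below all 3 wt for 1303 of 12903 genes tested (10.1%) and above for 1146 (8.88%), and edgeR called 149 genes there, 98 of them lower. Of the 378 genes that lay below in ZL, 128 did so in VD too, which is 33.9% of the ZL genes, 38.3% of the 334 of them tested in VD, and 9.82% of the VD genes. Another 12 of the 378 lay above in VD. Of the 305 above, 56 were above in VD (18.4%, or 24.6% of the 228 tested there, and 4.89% of the VD genes) and 2 below. Of the 26 genes with a gap of at least 1 log2 unit in ZL, 24 lay below in VD. That count stands beside a share of 10.1% for all genes in VD.

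Values in VD are given here for genes that led the ZL comparison. Iigp1 had 64.5, 48.7 and 38.3 CPM in wt and 10.7, 6.17 and 10.9 CPM in KO in VD, a log2 fold change of -2.43 (SE 0.24, edgeR adjusted p = 5.30e-05). Clca1 had 37.4, 40.1 and 46.9 CPM in wt and 7.15, 8.15 and 12.96 CPM in KO, a log2 fold change of -2.14 (SE 0.22, edgeR adjusted p = 8.03e-05). Oas2 had 29.4, 26.9 and 24.4 CPM in wt and 0 reads in each VD KO library. B2m and Ly6a, in which KO 4 was above the wt range in ZL, lay below in VD. B2m had 1641, 1596 and 1540 CPM in wt and 898, 899.5 and 939 CPM in KO there, a log2 fold change of -0.80 (SE 0.08, edgeR adjusted p = 3.59e-05). Ly6a had 47.7, 41.1 and 46.6 CPM in wt and 14.2, 11.6 and 18.5 CPM in KO, a log2 fold change of -1.61 (SE 0.18, edgeR adjusted p = 0.000197).

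The difference between the genotype effects of the 2 sets was tested by an interaction term over all 12 libraries. Of 13982 genes tested, edgeR called 0 (0.00%), with 221 at an unadjusted p under 0.05 and a smallest adjusted p of 0.983, and DESeq2 called 1, Nov. For B2m the interaction was 0.64 (SE 0.40, edgeR adjusted p = 0.983) and for Ly6a 1.03 (SE 0.62, edgeR adjusted p = 0.983). For Pim2, which lay below in ZL and had a log2 fold change of 0.19 in VD (SE 0.17), it was -1.07 (SE 0.31, edgeR unadjusted p = 0.00408 and adjusted p = 0.983). With the spread of the ZL libraries these differences were not detectable after adjustment.

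**Figure D5:**
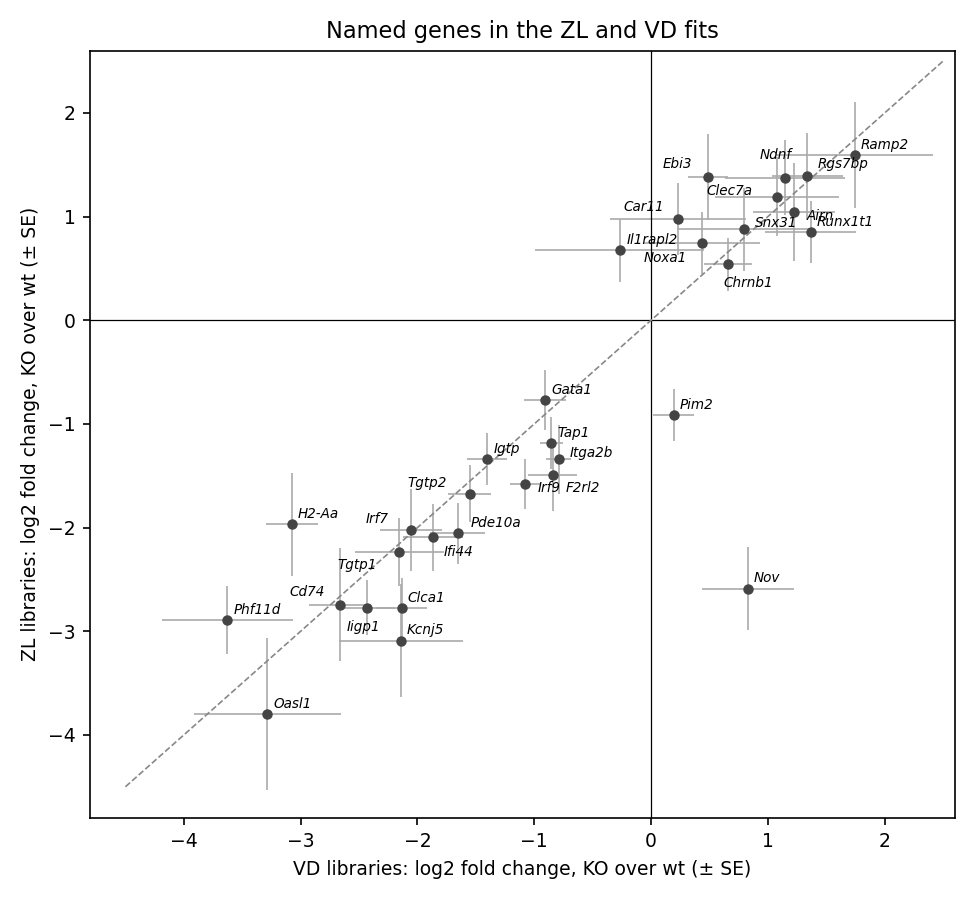
Log2 fold change of KO over wt in the ZL libraries (vertical axis) against that in the VD libraries (horizontal axis) for 32 named genes tested in both, with bars of 1 SE and a dashed line of equal values. The genes were chosen partly by their ZL values, and Oas2, with 0 reads in the VD KO libraries, is left out. Nov lies apart, at -2.59 in ZL and 0.83 in VD, and the interferon and MHC genes plotted are under 0 in both sets.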

How the data were processed

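Whole-gene read counts of 12 libraries were deposited in 1 table by the authors. Per the submitters' processing notes, STAR 2.3.0e, featureCounts and Subread were used with build mm10; how strand and multi-mapping reads were handled is not stated there. Each column was matched to a sample by its label, and 0 columns were left unmatched. The 6 ZL libraries were fitted alone, after filterByExpr (13859 of 23472 genes kept) and TMM scaling, with edgeR 4.0.16 (quasi-likelihood test, Benjamini-Hochberg adjustment over all genes tested) in R 4.3.3. DESeq2 1.42.0 and limma 3.58.1 were alternatives. Log2 gaps used CPM with a prior count of 2, and SEs are the log2 fold change over the root of the F statistic. No adjusted p from DESeq2 was given for 22 genes. Total counts ranged from 13804931 to 28701855, and replicates differed far beyond counting noise (lowest chi-square per degree of freedom 90.9). The gene-level fits and the non-overlap rule were tested on simulated data, in which DESeq2 also called unchanged genes beyond the share its threshold allows.

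The members, the 29 gene lists and the tests were chosen with earlier results of these data known. Named were Jak1, up to 12 genes per direction with the widest gap (mean of at least 5 CPM, gene models with Gm or Rik names passed over), the 4 genes of lowest p in each list, and a fixed set of pathway genes. Named outside this rule, after their values were seen, were Ache, Cav2, Ciita, Gbp2, Gbp3, Gm12250, Hmga2, Hoxa9, Ifit1, Irgm1, Irgm2, Isg15, Mfsd2b, Oasl2, Rtp4, Selp, Slamf1, Usp18 and the marker genes Procr, Hlf, Mecom, Csf1r, Mpo and Lat. Promoter windows and gene names came from RefSeq (GRCm38.p6), in which 21664 symbols of the table were current, 1647 were older names and 161 had no match. Alternatives were other scalings, filters, tools and dispersions, a fit over all 12 libraries, terms for sex and replicate number, an offset for exon length added after the data were seen, and each library left out. Results for 1 gene are not reported here.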

Additional observations from a re-analysis of the deposited data

Results flagged for a closer look

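Nov (CCN3, a secreted matrix protein) was called as different between the ZL and VD sets by DESeq2's test of the difference itself, but not by edgeR's. In ZL its level was 13.6, 8.02 and 14.5 CPM in wt and 1.77, 1.65 and 2.56 CPM in KO, and the groups were 1.62 log2 units apart. In VD it was 14.8, 6.84 and 10.7 CPM in wt and 18.8, 7.45 and 31.5 CPM in KO, and the groups overlapped. The genotype effect in ZL minus that in VD was -3.30 on the log2 scale by DESeq2 (SE 0.68, adjusted p = 0.0171, n = 3 per group and set). By edgeR it was -3.37 (SE 0.68, unadjusted p = 0.000249, adjusted p = 0.983). Nov was the only gene that DESeq2 called for this difference, among 13982 tested, and its cause was not tested. On simulated data of the ZL comparison, DESeq2 called unchanged genes beyond the share its threshold allows. Its test of the difference between sets was not run on simulated data.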

How the results depend on the processing

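The count of genes called lower was 0 by edgeR and moved to 45 with DESeq2, 47 with limma-voom, 21 in the fit over all 12 libraries, 5 without a filter on low counts, 2 at an adjusted p of 0.1 and 3 with the exon length offset. It stayed at 0 under the other scalings and filters run, robust dispersion, a sex term and each library left out, and the count called higher was 0 under every alternative run. A block for the replicate number gave 10 genes lower. The deviations of same-numbered libraries correlated at 0.136, 0.012 and 0.621, and wt 4 correlated best with KO 5, wt 5 with KO 4 and wt 6 with KO 6, so the numbers were not taken to pair the samples, although same-numbered libraries also share their sex. Genes below the wt range numbered 682 without the filter. Leaving out 1 library gave 625 to 2220 below and 596 to 2136 above, where fewer libraries must separate, with the highest counts without KO 6. For the difference between ZL and VD, DESeq2 called 1 gene and edgeR 0. The Jak1 log2 fold change was -0.0017 with limma-voom and ran from -0.36 (without KO 6) to 0.45 with 1 library left out. With 1 library left out, B2m ran from -0.69 (without KO 4) to 0.075 (without KO 6) and H2-K1 from -0.68 to 0.033 (the same 2 libraries). Xist turned from -0.13 to 2.40 with limma-voom and ran from -0.72 (without wt 4) to 0.64 (without wt 6), with 0.48 without KO 4. Of the other values of named genes, 1424 kept direction and call and 100 passed the threshold only under the alternative. List medians moved by at least the SE over the list members in 70 comparisons with an alternative and stayed within it in 423. Counts of list members outside the wt range, followed for the main lists, moved in 13 comparisons and stayed similar in 155. The causes were not tested. Depth limits the low values, such as Oas2 with 1 read in KO 4.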
